A study of Rattus norvegicus with 10 samples.

Results

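The 10 genes described here are the hypoxia-inducible factors (HIFs) Hif1a and Epas1, their common partner Arnt, and 7 genes that these factors are known to induce, Vegfa, Adm, Epo, Slc2a1, Pdk1, Bnip3 and Ddit4. They were taken by symbol, and every probe set that the platform annotation pairs with exactly 1 of them was used. All 10 had a probe set, which gave 13 of the 31042 probe sets tested and 10 of the 14217 genes with a probe set of their own. The livers came from male Sprague-Dawley rats, labelled as 5 weeks old. In the iron-deficient group (n = 5) the feed held about 3 ppm iron and was eaten freely, and in the pair-fed group (n = 5) the rats received the control diet with 48 ppm iron in matched amounts. Both groups had been trained to a daytime feeding window, and the livers were taken on day 3 of the diets, 1.5 h after feeding. RNA of each rat was hybridized to 1 Affymetrix Rat Genome array, and the values are log2 signals after the robust multiarray average (RMA). The labels of the pair-fed samples give the iron-deficient diet as their source and the control diet as their title and treatment, and the title was followed.

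HIFs are heterodimers of an oxygen-regulated alpha subunit, HIF-1α (Hif1a) or HIF-2α (Epas1), and the stable subunit ARNT. In the presence of oxygen, prolyl hydroxylases mark the alpha subunit for degradation through the VHL ubiquitin ligase, and these hydroxylases need iron as a cofactor. The alpha subunits are thus controlled mainly at the protein level, which an array of RNA does not measure, and the RNA of the target genes is the part of the pathway that it can read. The iron regulatory protein IRP1 also binds the Epas1 message and restrains its translation when iron is low. In the liver HIF-2α is known for inducing Epo and genes of iron and lipid handling.

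HIF dimers bind the core sequences ACGTG and GCGTG. They are shown here because binding to this core is what places the target genes in 1 pathway. The promoter windows of RefSeq (rat assembly GRCr8, 250 bases before to 50 after the start site) were searched for both cores on both strands. An ACGTG on each strand can share bases in a palindrome (CACGTG), and each was counted. One or more matches lay in the windows of 7 of the 10 genes, and 41.6% of all 33469 windows held one. No match lay in the windows of Epas1, Vegfa (2 windows) and Adm, which says only that these letters are not in these windows. For 5 of the 7 genes and for a pair of called HIF targets described further on, Bhlhe40 and Igfbp1, the 60 bases before the start site that hold most matches are given with the matches in capitals, read along the gene's strand.
Slc2a1, chr5:138002431-138002490, plus strand: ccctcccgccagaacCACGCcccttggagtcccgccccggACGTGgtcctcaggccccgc
Bnip3, chr1:203155029-203155088, minus strand: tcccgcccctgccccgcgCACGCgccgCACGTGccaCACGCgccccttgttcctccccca
Pdk1, chr3:77113433-77113492, plus strand: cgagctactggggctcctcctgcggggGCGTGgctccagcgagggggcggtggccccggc
Ddit4, chr20:28437071-28437130, minus strand: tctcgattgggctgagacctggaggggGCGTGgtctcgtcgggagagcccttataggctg
Epo, chr12:24841223-24841282, plus strand: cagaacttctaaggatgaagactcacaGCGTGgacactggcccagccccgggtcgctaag
Bhlhe40, chr4:143174203-143174262, plus strand: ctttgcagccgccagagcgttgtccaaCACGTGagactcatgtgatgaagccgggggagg
Igfbp1, chr14:86261163-86261222, plus strand: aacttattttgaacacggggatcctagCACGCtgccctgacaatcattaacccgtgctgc
Bnip3 had 4 matches within this stretch, the most of these genes, and Slc2a1 and Bhlhe40 had 2 each.

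Several facts of the arrays stood beside all of these values. The mean correlation of an array with the other 9 was 0.9915 to 0.9936 in the iron-deficient group and 0.9938 to 0.9941 in the pair-fed group, and iron-deficient replicate 1 was the lowest. The same array had the highest 3' minus 5' difference of both RNA quality controls, 0.36 for GAPDH and 1.74 for beta-actin, where the other arrays had at most 0.11 and 1.33. Hepatocyte markers were bright in all livers, with a summed linear signal of 164510 to 167810 in the iron-deficient and 161750 to 165820 in the pair-fed group. Red cell markers were lower in the iron-deficient group (10391 to 18104 against 15534 to 25237), and 6 of 8 were called lower. Of all 14217 genes by their brightest probe set, 0.76% were called lower and 0.324% higher. At such shares a short list would seldom hold a call, but the marker lists were chosen with earlier results of these data known. Summed endothelial markers were 6266 to 6783 against 5808 to 6413, and stellate cell markers 5862 to 9206 against 5112 to 6053, and 0 of 7 and 0 of 8 were called. No hepatocyte (8), Kupffer cell (7), kidney (5) or T, NK cell and neutrophil marker (10) was called. Their part in the values that follow was not tested. In whole liver, fewer cells of a type and less RNA per cell cannot be told apart.

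None of the 13 probe sets of the HIF factors and their targets passed a test between iron-deficient and pair-fed livers. The rank products method, which the study used, called 0 of 13 at a false discovery rate under 0.05, against 0.876% of all probe sets (0.303% higher and 0.573% lower). The lowest false discovery rate among them was 0.670. The moderated test of limma called 0 of 13 at an adjusted p under 0.05, and 0% of all probe sets, with a lowest adjusted p = 0.711 among the 13. At an unadjusted p under 0.05 it had 1 of the 13, Epo, beside 6.98% of all probe sets. The groups overlapped at every one of the 13 probe sets, and they did not overlap at 1.29% of all probe sets. At shares of 0.876% called and 1.29% without overlap, 13 probe sets would seldom hold either. The log2 differences, iron-deficient minus pair-fed, ran from -0.17 for Bnip3 to 0.18 for a probe set of Pdk1, with 8 probe sets higher and 5 lower. Regardless of sign, the median difference was 0.12 over the 13 probe sets and 0.068 over all probe sets.

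For the 11 probe sets brighter than the median of all, the 95% intervals of limma bound the difference in signal. They lay within 0.5 on the log2 scale on either side of 0 for 10 of the 11, the exception being Ddit4 with -0.53 to 0.44, and reached at most 0.692-fold and 1.38-fold. The other probe sets, of Adm and Epo, were dimmer and are not known to read above background, so that their intervals set no bound on a change in RNA. The median is not a detection limit, and without detection calls the intervals of the 11 bound the signal only. Single values were also compared by exact permutation tests, 2-sided, and of these 13 tests the lowest was p = 0.0556 and the highest p = 0.905, where 5 against 5 rats can give no less than 0.0079.

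**Figure D1:**
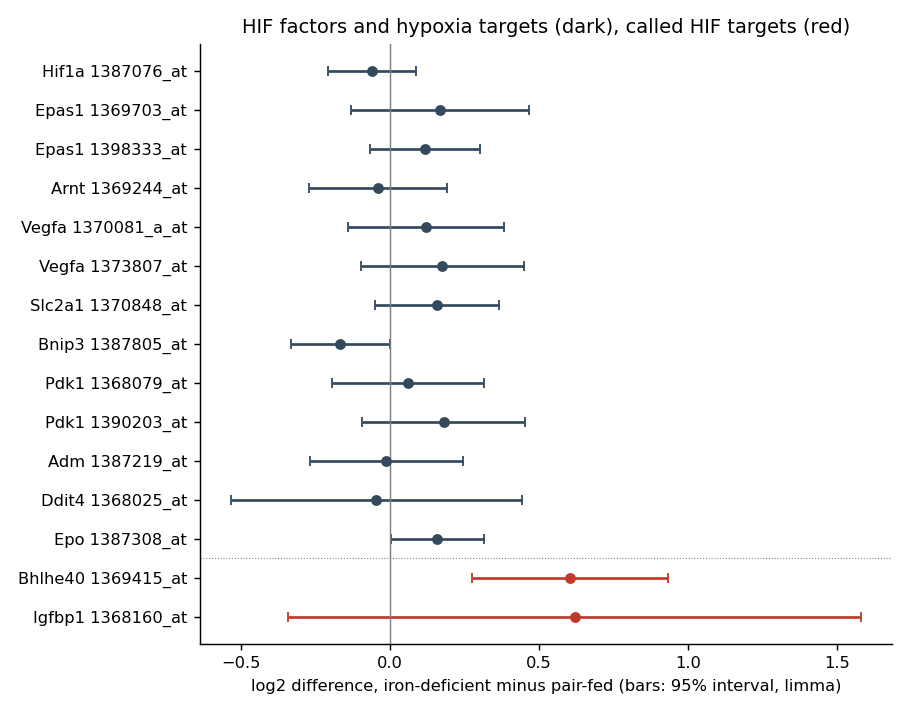
Log2 difference between the iron-deficient and the pair-fed group for the 13 probe sets of the HIF factors and hypoxia targets (dark) and for the called HIF targets Bhlhe40 and Igfbp1 (red); points are differences of the means and bars 95% intervals from limma (n = 5 each). The dark points lie between -0.17 and 0.18, and the interval of Ddit4 is the widest among them.

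No probe set of the alpha subunits or of Arnt passed a test between diets. Hif1a had log2 signals of 10.73, 10.55, 10.73, 10.62 and 10.49 in iron-deficient rats 1 to 5, against 10.77, 10.65, 10.71, 10.59 and 10.72 in pair-fed rats 1 to 5. The values were interleaved, and Hif1a had the smallest spread within groups of the 13 probe sets. Its mean was 10.63 ± 0.11 in the iron-deficient group and 10.69 ± 0.07 in the pair-fed group (SD, n = 5 each), a difference of -0.06 (SE 0.0680, 95% interval -0.21 to 0.09; limma adjusted p = 0.886).

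Epas1, which encodes the alpha subunit whose message IRP1 binds, was read by a pair of probe sets. The brighter one had 12.03, 11.75, 11.93, 11.56 and 11.87 in the iron-deficient livers, against 11.77, 11.63, 11.74, 11.75 and 11.67 in the pair-fed livers. Iron-deficient livers 1, 3 and 5 lay above all pair-fed livers and replicate 4 lay below all of them, so that the wider spread was in the iron-deficient group, 11.83 ± 0.18 against 11.71 ± 0.06 (SD, n = 5 each). The difference was 0.12 (SE 0.0846, 95% interval -0.07 to 0.30; limma adjusted p = 0.810), and it was 0.0674 without iron-deficient replicate 1 and 0.185 without replicate 4. The other probe set had 8.35, 7.99, 8.56, 7.86 and 8.29 in iron-deficient rats, against 7.78, 7.94, 8.14, 8.00 and 8.36 in pair-fed rats, with a difference of 0.17 (SE 0.138), which was 0.0806 without iron-deficient replicate 3, 0.10 without pair-fed replicate 1 and 0.26 without iron-deficient replicate 4. Again iron-deficient livers 1, 3 and 5 were the higher ones of their group and replicate 4 the lowest. Across the 10 livers the probe sets had a Pearson correlation of 0.66 and a Spearman correlation of 0.47, given as a description of 2 readings of 1 gene.

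Arnt had 7.48, 7.12, 7.45, 7.10 and 6.90 in iron-deficient rats, against 7.13, 7.24, 7.38, 7.22 and 7.27 in pair-fed rats. Iron-deficient livers 1 and 3 were above and livers 2, 4 and 5 below every pair-fed liver, so that the group means of 7.21 ± 0.25 and 7.25 ± 0.09 (SD, n = 5 each) differed by -0.04 only (SE 0.107; limma adjusted p = 0.964).

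**Figure D2:**
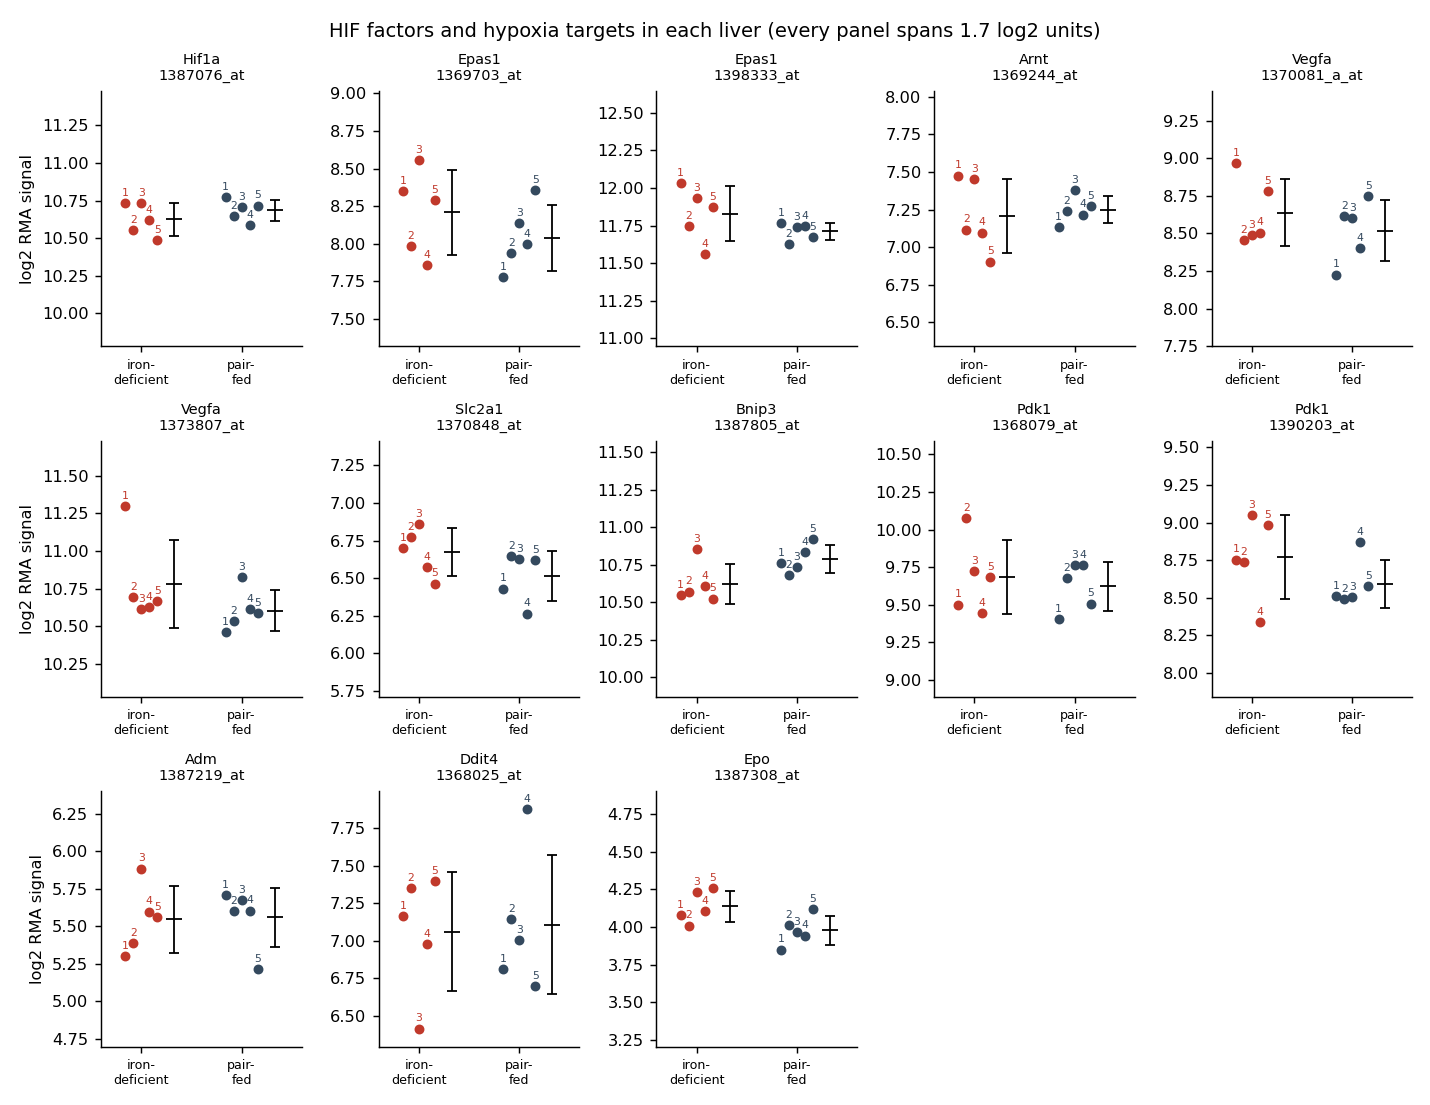
Log2 RMA signal of the 13 probe sets in each liver, iron-deficient on the left (red) and pair-fed on the right (dark), with replicate numbers at the points and mean ± SD (n = 5) beside them. The groups overlap in every panel, and iron-deficient replicate 1 stands above all other livers at the brighter Vegfa probe set with 11.30.

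Among the secreted products, Vegfa encodes the main growth factor of the endothelium. Its brighter probe set had 11.30, 10.69, 10.61, 10.63 and 10.67 in the iron-deficient livers, against 10.46, 10.53, 10.82, 10.61 and 10.59 in the pair-fed livers. Replicate 1 was far above the other 4 iron-deficient livers, which lay within the pair-fed range. The means were 10.78 ± 0.29 and 10.60 ± 0.14 (SD, n = 5 each), a difference of 0.18 (SE 0.126, 95% interval -0.10 to 0.45; limma adjusted p = 0.810), and 0.05 without iron-deficient replicate 1. The dimmer probe set had 8.97, 8.45, 8.49, 8.51 and 8.78 in iron-deficient rats, against 8.23, 8.61, 8.60, 8.40 and 8.75 in pair-fed rats. Replicate 1 was again the highest of the 10, and the difference of 0.12 (SE 0.120) was 0.04 without it. By group medians the dimmer probe set was lower in the iron-deficient group, at -0.10. Without pair-fed replicate 1, the lowest of the 10 livers at both probe sets, the difference of the dimmer one was 0.05. Between the probe sets the Pearson correlation over 10 livers was 0.71 and the Spearman correlation 0.43.

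Adm encodes adrenomedullin, a peptide that widens vessels. It had 5.30, 5.39, 5.88, 5.60 and 5.56 in iron-deficient rats, against 5.71, 5.60, 5.67, 5.60 and 5.21 in pair-fed rats, and its mean lay below the median of all probe sets. The difference was the smallest of the 13, -0.01 (SE 0.118, 95% interval -0.27 to 0.24; limma adjusted p = 0.991). Its sign was not settled, since it was 0.01 with array weights and turned positive in 4 of the 10 settings that leave out 1 liver.

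Epo encodes erythropoietin, the hormone of red cell production, which the liver makes in fetal life and the kidney after it. Its probe set was dim, brighter than only 14.7% of all probe sets, and the deposited values come without detection calls, so that it is not known whether the signal is above background. It had 4.08, 4.01, 4.23, 4.11 and 4.26 in the iron-deficient livers, against 3.85, 4.01, 3.97, 3.94 and 4.12 in the pair-fed livers. All 5 iron-deficient values lay above the pair-fed median, with overlap at the edges, and the iron-deficient rat was higher in 21 of the 25 pairs. The means were 4.14 ± 0.10 and 3.98 ± 0.10 (SD, n = 5 each), a difference of 0.16 (SE 0.0713, 95% interval 0.0045 to 0.31). It did not pass with adjustment over all probe sets (limma adjusted p = 0.711, false discovery rate 0.922).

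The receptors of these 3 ligands gave 8 listed genes with a probe set. All 8 had higher means in the iron-deficient group, beside 47.5% of all genes by their brightest probe set, and none passed a test. The list was chosen with earlier results of these data known, so that this share cannot show an excess. The median difference of the 8 at their brightest probe sets was 0.11, beside -0.0059 over all genes by their brightest probe set. These values ran from 0.06 for Calcrl, a subunit of the adrenomedullin receptor, to 0.19 for Flt1, a VEGF receptor that is dim on these arrays. Without iron-deficient replicate 1 this Flt1 difference was 0.0369 and the list's median 0.0817. The other probe sets of Flt1 had 0.2378 and 0.0047 without that liver. The first of these ran from 0.176 to 0.2994 with any 1 liver left out. Nrp2, a co-receptor of VEGF, had 0.14 (SE 0.0971) and the VEGF receptor Kdr 0.12 (SE 0.0758). Epor, the receptor of erythropoietin, had 0.08 (SE 0.0836). The endothelial markers, which share Kdr with this list, were higher for 6 of 7 genes, with a median of 0.08 and the largest differences for Stab2 (0.29) and Tie1 (0.20).

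Of the targets that act in glucose use, Slc2a1 encodes the glucose transporter GLUT1. It had 6.70, 6.78, 6.86, 6.57 and 6.46 in iron-deficient rats, against 6.43, 6.65, 6.62, 6.26 and 6.62 in pair-fed rats. Iron-deficient livers 1, 2 and 3 were above all pair-fed livers, while 4 and 5 lay among them. The difference was 0.16 (SE 0.0959, 95% interval -0.05 to 0.37; limma adjusted p = 0.782), and it was 0.0942 without pair-fed replicate 4, the lowest liver.

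Pdk1 encodes a kinase that shuts off pyruvate dehydrogenase and so keeps pyruvate from the mitochondria. Its brighter probe set had 9.50, 10.07, 9.72, 9.44 and 9.68 in the iron-deficient livers, against 9.40, 9.68, 9.77, 9.76 and 9.51 in the pair-fed livers, a difference of 0.06 (SE 0.117), and -0.04 without iron-deficient replicate 2, the highest of the 10. The other probe set had 8.75, 8.74, 9.05, 8.34 and 8.98 in iron-deficient rats, against 8.51, 8.49, 8.51, 8.87 and 8.58 in pair-fed rats. There 4 iron-deficient livers were above the pair-fed median and replicate 4 was the lowest of all, with a difference of 0.18 (SE 0.126; limma adjusted p = 0.806). This probe set had the largest difference of the 13, but it was 0.11 without iron-deficient replicate 3 and 0.29 without iron-deficient replicate 4. The probe sets ranked the livers differently, with a Pearson correlation of 0.41 and a Spearman correlation of 0.36 over 10 livers. The related kinases Pdk2, Pdk3 and Pdk4 had 0.08 (SE 0.121), -0.14 (SE 0.0813) and 0.01 (SE 0.297) at their brightest probe sets, and none passed. All 5 iron-deficient livers were below the pair-fed median at the brightest probe set of Pdk3, which is dim on these arrays. At the other Pdk3 probe set the difference was -0.1151 without iron-deficient replicate 4 and 0.0917 without iron-deficient replicate 5.

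Bnip3 encodes a mitochondrial protein that promotes the removal of mitochondria. It had 10.55, 10.57, 10.85, 10.61 and 10.52 in the iron-deficient livers, against 10.76, 10.68, 10.74, 10.83 and 10.92 in the pair-fed livers. All iron-deficient livers but replicate 3 lay below every pair-fed liver, and replicate 3 lay above all pair-fed livers but replicate 5. The means were 10.62 ± 0.13 and 10.79 ± 0.09 (SD, n = 5 each), a difference of -0.17 (SE 0.0765) or 0.891-fold, with limma adjusted p = 0.714 and p = 0.0635 from the exact permutation test, 2-sided. Hypoxia is known to raise this gene. Neither its difference nor that of Slc2a1, which had the opposite sign, passed a test. Its relative Bnip3l, known for clearing mitochondria from maturing red cells, had -0.11 (SE 0.0731) and -0.19 (SE 0.0795) at its probe sets and did not pass. Red cell markers were lower in the same livers, and their part in these values was not tested.

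Ddit4 encodes an inhibitor of the growth kinase complex mTORC1 and responds to glucocorticoids and other stress as well as hypoxia. It had 7.17, 7.35, 6.42, 6.98 and 7.40 in iron-deficient rats, against 6.81, 7.14, 7.01, 7.87 and 6.70 in pair-fed rats. The lowest liver was iron-deficient replicate 3 and the highest pair-fed replicate 4, and Ddit4 had the largest spread within groups of the 13 probe sets (0.431, larger than for 98.2% of all probe sets). The means were 7.06 ± 0.40 and 7.11 ± 0.46 (SD, n = 5 each), a difference of -0.05 (SE 0.224; limma adjusted p = 0.981). It was 0.12 without iron-deficient replicate 3, 0.15 without pair-fed replicate 4 and 0.16 by group medians, so that no direction can be given. Of 9 listed glucocorticoid-induced genes and of 8 other regulators of mTORC1, 0 were called, with median differences of 0.13 and 0.05. In the glucocorticoid list 5 genes were higher and 4 lower, with a lowest value of -0.23, and its median was 0.0331 without iron-deficient replicate 2 and 0.0455 without pair-fed replicate 2. The largest were 0.33 for Dusp1, a phosphatase, and 0.29 for Errfi1 in the glucocorticoid list, and 0.15 for Tsc2 and -0.13 for Deptor, both inhibitors of mTORC1.

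No liver stood apart at all of these genes. Counted over the brightest probe set of each gene, 7, 6, 9, 4 and 6 of 10 genes were above the pair-fed mean in iron-deficient rats 1 to 5, against 3, 5, 7, 6 and 5 in pair-fed rats 1 to 5. Iron-deficient replicate 3 was above it for all but Ddit4, and replicate 1 held the highest value of the 10 livers for 3 genes. The SD was larger in the iron-deficient group at 11 of the 13 probe sets, and at 63.3% of all probe sets.

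**Figure D3:**
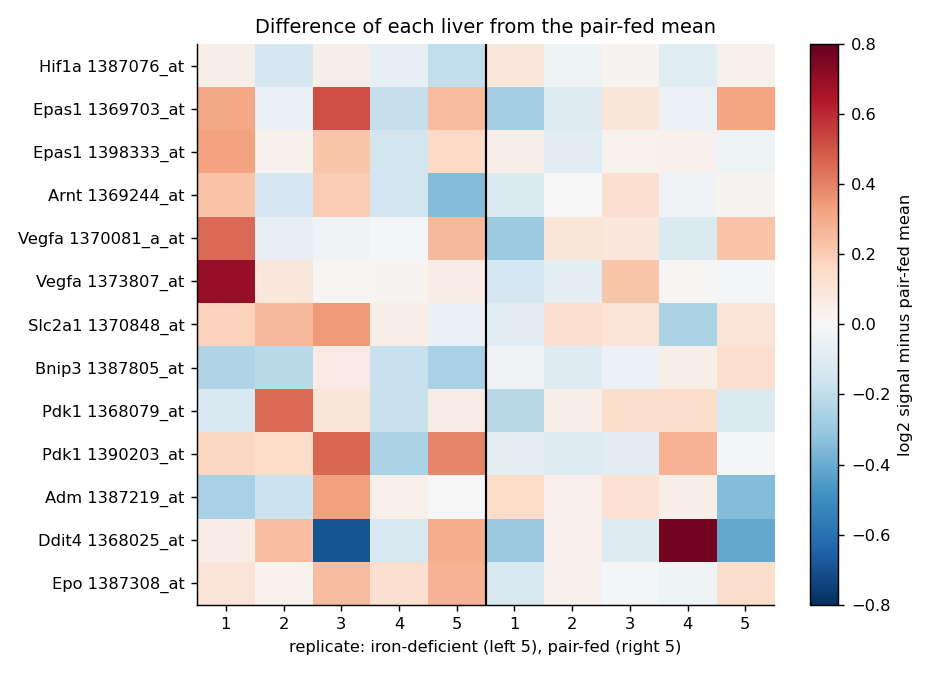
Difference of each liver from the pair-fed mean on the log2 scale, with the 5 iron-deficient livers left of the line and the 5 pair-fed livers right of it. Red is higher and blue lower, and no column is red or blue throughout.

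None of the listed genes that control HIF passed either test. Of 8 listed oxygen sensors and degradation factors with a probe set, 4 were higher and 4 lower, and 0 were called by the rank products, with a median difference of -0.01. The prolyl hydroxylases Egln1 and Egln2, which use iron themselves, had 0.06 (SE 0.0890) and 0.05 (SE 0.0742) at their brightest probe sets, and Vhl 0.03 (SE 0.0615). The other probe set of Egln1 had -0.09 (SE 0.0902). Egln3, which HIF is known to induce, had a dim probe set at -0.06 (SE 0.293), with SDs of 0.31 in the iron-deficient and 0.74 in the pair-fed group. The largest differences were those of Rbx1 (-0.11) and Elob (0.11), subunits of the VHL ligase. Of 9 partners and modulators 0 were called (median 0.05, and -0.0064 without iron-deficient replicate 1). Aco1, which encodes IRP1, had 0.09 (SE 0.100), Ireb2, its relative IRP2, had 0.10 (SE 0.120), and without iron-deficient replicate 1 these were -0.0064 and 0.0109. The co-activator Crebbp and the HIF inhibitor Cited2 had -0.15 and -0.14. Another probe set of Crebbp had 0.13, and none of its 5 passed. Relatives of the 10 genes, 15 with a probe set, had 0 calls and a median of 0.01, with 0.19 for Vegfb, a relative of Vegfa, and 0.15 for Ddit4l, a relative of Ddit4.

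Of 48 measured HIF targets beyond the 10 genes, in 3 lists, the rank products called 2 higher and 0 lower. That is 4.17% higher, beside 0.324% of all 14217 genes by their brightest probe set, and rank sums called 0 higher. The lists were chosen with earlier results of these data known, so neither this share nor those that follow can show an excess. Of the 48 targets, a higher mean was seen for 33 and a lower mean for 15 (68.8% higher, beside 47.5% of all genes). The median difference was 0.05, beside -0.0059. For 85.4% of them the difference was under 0.2 in size, beside 91.8% of all genes by their brightest probe set. Of the 3 lists, that of glucose uptake and glycolysis had the narrowest range. At their brightest probe sets all 16 genes lay between -0.10 (Gpi, an isomerase) and 0.10 (Hk1, a hexokinase), with 0 called and a median of 0.02, and Ldha, which makes lactate, had 0.10 (SE 0.0564). The dimmer probe set of Pfkfb4, a regulator of glycolysis, lay outside this range. It was the only one of 74 probe sets of these lists at which the groups did not overlap. That share is close to the 1.29% over all probe sets. It had 4.81, 4.86, 4.93, 4.91 and 4.86 in iron-deficient rats, against 4.35, 4.55, 4.55, 4.72 and 4.69 in pair-fed rats, a difference of 0.30 (SE 0.0739; limma adjusted p = 0.601, false discovery rate 0.341). It passed neither adjusted test, and the other probe set of Pfkfb4, which is brighter but also below the median of all probe sets, had -0.07 (SE 0.102). In the list of mitochondrial, stress and survival genes 1 of 18 was called (median -0.0014), and Ankrd37, known as a hypoxia target, had -0.22 (SE 0.226). In the list of secreted, vascular and iron-related targets 1 of 14 was called (7.14%) and 12 were higher (85.7%), with a median of 0.12. This list shares Flt1 and Kdr with that of the receptors, so that their counts are not separate. The shares over all genes are those given for the 3 lists together.

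**Figure D4:**
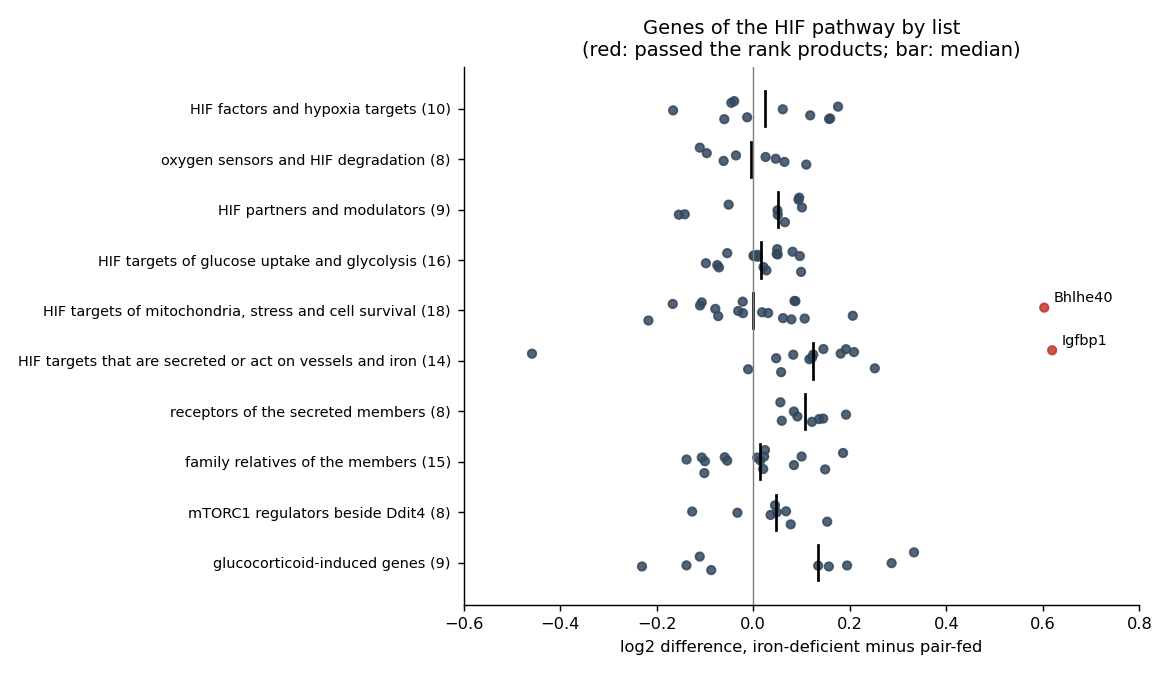
Log2 difference, iron-deficient minus pair-fed, of each gene at its brightest probe set, by list with the number of genes in brackets; black bars are list medians and red points passed the rank products. Bhlhe40 (0.60) and Igfbp1 (0.62) are the 2 red points, and the lists centre between -0.01 and 0.13.

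The called genes were Bhlhe40 and Igfbp1. Bhlhe40 encodes a transcriptional repressor that is a target of HIF and a part of the clock. It had 10.32, 10.29, 10.27, 10.14 and 10.25 in iron-deficient rats, against 9.30, 10.16, 9.22, 9.76 and 9.83 in pair-fed rats. The iron-deficient livers were alike and nearly all above the pair-fed ones, with only pair-fed replicate 2 reaching iron-deficient replicate 4. Bhlhe40 rose by 0.60 (SE 0.151, 1.52-fold, 95% interval 0.27 to 0.93), with means of 10.26 ± 0.07 and 9.65 ± 0.39 (SD, n = 5 each). Its false discovery rate was 0.0111 and the exact permutation test, 2-sided, gave p = 0.0159, while limma gave adjusted p = 0.601. The rate was 0.0535 without pair-fed replicate 3 and 0.0534 without pair-fed replicate 1, and 0.156 by rank sums. The exact permutation test also gave p = 0.0159 for the HIF targets Ldha (difference 0.10) and Higd1a (-0.17), which were not called.

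Igfbp1 encodes an insulin-like growth factor binding protein that HIF induces and insulin represses. It had 6.06, 7.78, 9.19, 6.997 and 7.21 in iron-deficient rats, against 6.73, 7.37, 6.53, 6.40 and 7.12 in pair-fed rats. The highest and the lowest of the 10 livers were both iron-deficient, replicates 3 and 1, and 4 of 5 iron-deficient livers were above the pair-fed median. The difference was 0.62 (SE 0.443, 95% interval -0.34 to 1.58), with a false discovery rate of 0.0138 and limma adjusted p = 0.809, and p = 0.325 from the exact permutation test, 2-sided. It was 0.18 with a false discovery rate of 0.366 without iron-deficient replicate 3, and 0.97 without replicate 1. The call was also lost without iron-deficient replicate 2 (0.119) or pair-fed replicate 4 (0.0516), and by rank sums (0.899).

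Hmox1, the heme-degrading enzyme and a shared target of HIF and other stress factors, had the largest difference of the listed targets in the other direction and was not called. It had 8.89, 8.44, 8.42, 8.75 and 8.49 in iron-deficient rats, against 8.57, 8.87, 8.93, 8.70 and 10.19 in pair-fed rats, where replicate 5 stood far above the rest. The difference was -0.46 (SE 0.250, false discovery rate 0.122), and -0.17 without pair-fed replicate 5. Tfrc, the transferrin receptor, whose message is also stabilized by the iron regulatory proteins, had 0.18 (SE 0.0913) and 0.25 (SE 0.128) at its probe sets and did not pass.

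**Figure D5:**
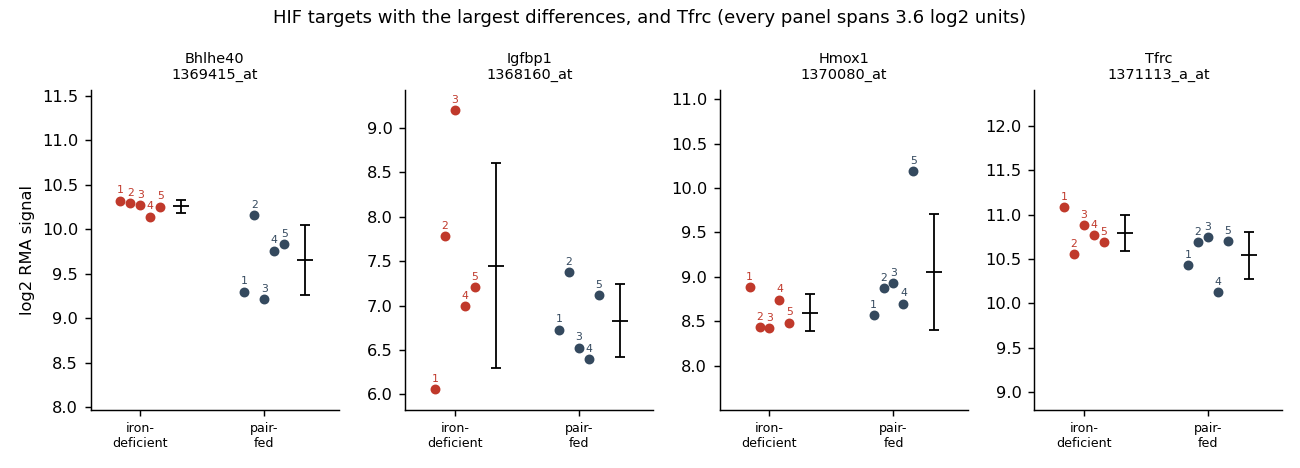
Log2 RMA signal of Bhlhe40, Igfbp1, Hmox1 and a probe set of Tfrc in each liver, iron-deficient left (red) and pair-fed right (dark), with mean ± SD (n = 5) beside the points. The iron-deficient livers lie close together for Bhlhe40 (10.14 to 10.32) and far apart for Igfbp1 (6.06 to 9.19).

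Genes with the most similar pattern over the 10 livers were sought for the 3 genes with the largest spread within groups among those brighter than the median probe set. For each, the 14216 other genes were ranked by Pearson correlation at their brightest probe set, so that high values are expected from the search alone and carry no p. Ddit4 was nearest to Trim41, Hoxa9 and Rbm27 (0.90 each, 0.90 to 0.91 within groups). Vegfa was nearest to Neurl1b, Cdk18 and Clic4 (0.95, 0.94 and 0.94), with Spearman correlations of only 0.67 to 0.72, and iron-deficient replicate 1 held its highest value. Pdk1 was nearest to Spns2, Tesmin and Dhh (0.93, 0.90 and 0.89).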

How the data were processed

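The deposited log2 values are RMA signals that the authors computed from the scanned arrays in R and Bioconductor, on 1 array per rat, and 0 columns were left out. RMA brings all arrays to a common distribution, so that a shift shared by most genes is removed; the array medians were 6.19 to 6.22. The 57 control probe sets were left out of the tests. Of 31042 probe sets, 20826 are paired with 1 gene, 436 with several and 9780 with none.

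For the rank products, the probe sets were ranked within each of the 25 differences of 1 array of either diet, with expected ranks from 100 permutations within arrays (Python 3.11.15, numpy 2.4.6). False discovery rates above 1 were set to 1. SEs, 95% intervals and Benjamini-Hochberg adjusted p-values over all probe sets came from limma 3.58.1 in R 4.3.3. Both tests were checked on simulated data. The replicates are separate rats, and 5 arrays per group limit the precision. The brightest probe set stands for a gene in a list, and summed marker levels are on the linear scale. Alternatives were rank sums, the replicate number as a block, leaving out dim probe sets or single livers, array weights, a trended robust prior, other scalings, probe set means and group medians. Similar genes were ranked by Pearson correlation.

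The genes and lists were chosen with earlier results of these data known. Named are all probe sets of the 10 genes, and in each list the called genes or else the 2 with the largest difference. Further genes were named for their role after their values were seen.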

Additional observations from a re-analysis of the deposited data

Results flagged for a closer look

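In 98 sets of 5 livers (49 probe sets, both groups), 10 held a liver far from the other 4 by Dixon's criterion, which chance meets in about 1 of 20 sets. Of these, 4 concerned the 10 genes. Iron-deficient replicate 1 had 11.30 for the brighter probe set of Vegfa, the other 4 at 10.61 to 10.69, and iron-deficient replicate 3 had 10.85 for Bnip3, the others at 10.52 to 10.61. Pair-fed replicate 4 had 8.87 for the dimmer probe set of Pdk1, the others at 8.49 to 8.58, and pair-fed replicate 5 had 5.21 for Adm, the others at 5.60 to 5.71. Among the listed genes, iron-deficient replicate 1 had 5.82 for S100a8, a neutrophil marker, and iron-deficient replicate 5 had 4.55 for Umod, a kidney marker. Pair-fed replicate 5 had 10.19 for Hmox1, replicate 4 had 6.48 for Vegfb, replicate 3 had 7.72 for Col1a1 and replicate 1 had 11.03 for Hba-a3.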

How the results depend on the processing

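No probe set of the 10 genes was called by the rank products or by limma in any setting run. These settings tested 13 probe sets, or 11 where dim ones (Adm and Epo) were left out, or 10 gene means. Over all probe sets the rank products called 94 higher and 178 lower, against 4 and 30 by rank sums and 55 and 109 with dim probe sets left out, and 47 to 95 and 91 to 188 when 1 liver was left out. They called 2 HIF targets higher, 0 by rank sums and 1 to 2 with 1 liver left out, and 0 lower in all of these. limma called 0 probe sets, and 0 to 1 with 1 liver left out. The replicate numbers paired no livers (correlations of deviations -0.04 to 0.09, 1 of 5 iron-deficient livers nearest to its own number), and with the replicate block the rank products over same-numbered pairs called 82 higher and 148 lower and limma 0.

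The sign of a difference turned for Adm with array weights (0.0131), and by group medians for Ddit4 (0.16) and the dimmer probe set of Vegfa (-0.10). Leaving out 1 liver turned it for Adm (-0.10 to 0.0488), Arnt (-0.11 to 0.0369), Ddit4 (-0.15 to 0.15) and the brighter probe set of Pdk1 (-0.0364 to 0.12), and moved the median of the family relatives to between -0.0653 and 0.0261. The cause was not tested. The other 9 probe sets kept their direction with any 1 liver left out. No detection calls came with these values, so that it is not known whether the dim probe sets of Epo and Adm measured RNA above background.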
